A study of Mus musculus with 14 samples.

Results

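The comparison set 2 libraries of c-Rel knockout B cells (cko) after 6h with BAFF against 2 libraries of wild type B cells (wt) treated in the same way, chosen by their titles from the 14 libraries of the series. Of 39179 gene IDs in the files, 12630 had enough counts to be tested. The cko cells carried the crel-/- genotype and the wt cells were labelled wild type, and both came from mice of strain C57BL/6. All groups were follicular B cells purified from mouse spleen with a magnetic isolation kit and cultured in medium with BAFF at 50 ng per ml. The series also holds both genotypes at 0h, wt cells at 27h, and relb-/-crel-/- double knockout cells (dbko) at 0h and 6h, each as 2 libraries. How the crel allele was made and in which cells it was deleted is not stated in the labels, nor is whether replicate libraries came from different mice. P-values therefore measure only the spread between these libraries, which may be technical.

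c-Rel, encoded by Rel, is a subunit of NF-kB, a family of dimeric transcription factors that IkB proteins hold inactive in the cytoplasm until a signal frees them. Lymphocytes contain much of it, and in B cells it is known for its part in activation, division and survival after stimulation. BAFF is a cytokine that mature B cells need to survive. It acts mainly through its receptor BAFF-R, which signals through TRAF3 and the kinase NIK to the non-canonical NF-kB pathway of p100 and RelB, and also feeds the canonical pathway to which c-Rel belongs.

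Gene counts summed to between 10548983 and 11888765 in the 4 libraries, and between 15594 and 15751 genes had at least 1 count. The chi-square statistic between replicates, about 1 per gene where only counting noise separates them, was 23.74 between the cko replicates and 5.04 between the wt replicates, so the cko pair differed more. Reads outside any annotated gene made up 9.76 and 5.21% of the tallied reads in the cko libraries, against 11.46 and 9.67% in the wt libraries. B cell genes were high in all 4 libraries: 10 B cell markers summed to 19850 and 22390 CPM (counts per 1000000 of the library's total, scaled by TMM) in cko, against 17580 and 18440 CPM in wt. Of 13 T cell markers, 9 stood under 1 CPM in each of the 4 libraries, among them the Cd3 chains, Cd4 and Cd8a, and Nkg7, Ncr1, Gzma, Elane and Camp had no count in the 4 libraries. Markers of macrophages and monocytes summed to 102 and 117 CPM in cko, against 104 and 92.5 CPM in wt. Most of this was Hmox1, a stress-induced enzyme, and without it they summed to 30.51 and 31.87 CPM in cko, against 42.01 and 42.38 CPM in wt. Of 15 tested, 12 lay below 0 with a median log2 fold change of -0.74, none was called at 6h in edgeR's test (1 higher and 2 lower at an unadjusted p under 0.05), and 6 were lower in cko at 0h; their part in the results was not tested. In bulk RNA, fewer cells of a type and less RNA per cell cannot be told apart.

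Rel was reduced but not absent in the libraries labelled cko. It stood at 111 and 95.3 CPM in cko at 6h, against 672 and 683 CPM in wt at 6h. Both cko values lay below both wt values, and the log2 fold change was -2.71 ± 0.14 (standard error from edgeR's quasi-likelihood fit, adjusted p = 3.65e-07). At 0h the difference was -3.50. The labels do not state the deleted exons, so where in the gene the remaining reads lie could not be related to the deletion. The gene next to Rel, Pus10, ends 3971 bases before it on chromosome 11 (GRCm38) and is described among the falls. Of 16 tested genes within 1000000 bases of Rel, Pus10 was the 1 gene called at 6h.

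After 6h with BAFF, 447 genes, 3.54% of those tested, differed between cko and wt at an adjusted p under 0.05 in edgeR's quasi-likelihood test. Of these, 199 were higher in cko (1.58%) and 248 were lower (1.96%). The larger differences were mostly decreases: 124 of the 162 genes that differed at least 2-fold were lower in cko. In all 447 genes the 2 cko values lay apart from the 2 wt values, as they did in 51.7% of all genes tested. The count of calls depended on which libraries were in the fit. Leaving out 1 of the 4 libraries leaves a group with 1 library and less power. A call lost in this way therefore does not show that it rested on a single library. Left without one library at a time, the count was 448 (3.55%) without cko replicate 1, 100 (0.792%) without cko replicate 2, 99 (0.784%) without wt replicate 1 and 70 (0.554%) without wt replicate 2. It was 2233 (18.4%) when the dbko libraries, which lend their spread to the fit, were left out, and 671 (6.15%) with DESeq2 in place of edgeR. A set of 56 genes (0.443%) passed in the fit to all libraries and in each of those 4 fits with the same sign, 16 higher (0.127%) and 40 lower (0.317%) in cko, and these are called stable here. Every called gene outside this set lost its call with at least 1 of these libraries left out, and for several the range of adjusted p is given. Counts of called members of a list stand against 1.58% of all genes higher and 1.96% lower.

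**Figure D1:**
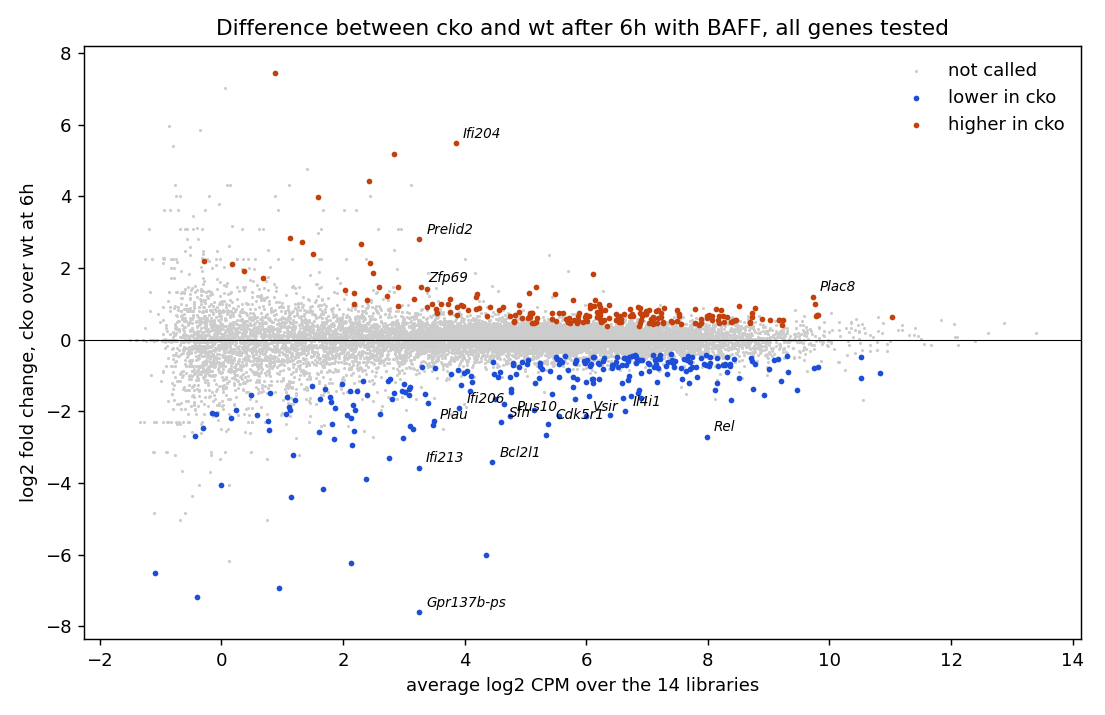
Each point is 1 of the 12630 genes tested, with its average log2 CPM over the 14 libraries on the x axis and its log2 fold change of cko over wt at 6h on the y axis, blue where lower in cko and red where higher. The 248 blue points reach further from 0 at middle and high levels than the 199 red points, and Gpr137b-ps, Bcl2l1 and Rel are labelled among the falls and Ifi204, Prelid2 and Plac8 among the rises.

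Among the other Rel-family subunits, none passed the test. Relb stood at 159 and 172 CPM in cko and 150 and 164 CPM in wt, with ranges that overlapped (log2 fold change 0.08 ± 0.14). Rela had a log2 fold change of -0.16, Nfkb1 of -0.29 and Nfkb2 of -0.09, with adjusted p in edgeR's test of 0.69, 0.344 and 0.822. DESeq2 likewise called Rel alone of the 5 subunits, and Rel was also the 1 subunit with an unadjusted p under 0.05 in the fit to all libraries. Without the dbko libraries, where 9.4% of all genes were lower, 2 subunits were lower, Rel and Nfkb1 (adjusted p = 0.0155 for Nfkb1 in edgeR's test). At 0h Relb was higher in cko (0.64, adjusted p = 0.0385).

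Of the called members of the gene lists, Bcl2l1, which encodes the mitochondrial survival protein Bcl-xL, had the largest fall. Its level was 5.28 and 7.36 CPM in cko at 6h, against 62.8 and 72.3 CPM in wt at 6h. The cko libraries were about an order of magnitude below the wt libraries, with a log2 fold change of -3.41 ± 0.18 (adjusted p = 4.27e-07 in edgeR's test, 6.87e-06 to 2.82e-05 with 1 library left out). At 0h the level was 8.15 and 8.25 CPM in cko and 10.5 and 9.68 CPM in wt, a log2 fold change of -0.30 (adjusted p = 0.543). The knockout effect at 6h exceeded that at 0h by -3.11 ± 0.26 on the log2 scale (adjusted p = 0.00033). In dbko cells Bcl2l1 stood at 14.2 and 10.9 CPM at 6h. The high level was thus seen in wt cells, which held 38.0 and 38.2 CPM at 27h.

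Other survival genes divided into those that fell and those that did not pass. Of 11 tested members of a pro-survival list of 14, 4 were lower in cko, against 1.96% of all genes, and 2 or 3 with 1 library left out. Bcl2l1 and Bcl2a1b were stable. Bcl2a1b, a Bcl-2 relative of the A1 family, stood at 3.25 and 4.82 CPM in cko and 12.1 and 13.6 CPM in wt (-1.66 ± 0.23, adjusted p = 0.00201 in edgeR's test). It has near-identical copies, and reads that align to several places are outside the counts, so its level is uncertain. Pim1, a kinase that promotes survival and growth, fell by 1.40 on the log2 scale (adjusted p = 0.0173, 0.0708 to 0.16 with 1 library left out). Cflar, the caspase-8 inhibitor c-FLIP, fell by 0.72 (adjusted p = 0.00933, 0.0423 to 0.12 with 1 library left out). The survival genes Mcl1 at 738 and 773 CPM in cko and 718 and 737 CPM in wt, Bcl2 at 58.0 and 60.6 CPM in cko and 55.9 and 50.3 CPM in wt, and Xiap at 168 and 180 CPM in cko and 171 and 169 CPM in wt had log2 fold changes of 0.05, 0.16 and 0.03. Among 14 tested pro-apoptotic genes of 17, Fas, a death receptor (-1.16), and Pmaip1, the BH3-only protein Noxa (-0.92), were lower (1.96% of all genes). The caspase gene Casp9 was higher (0.48, with 1.58% of all genes higher). Each of these 3 calls was lost whichever of the 4 libraries compared was left out.

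Genes listed as NF-kB targets known in the literature were lower as a group. The list was written with earlier results of these data known, so its share of calls is a description and not an independent test. Of 41 tested members of a list of 43, 18 were lower in cko, 43.9% of those tested against 1.96% of all genes, and 34 had a log2 fold change below 0 against 46.8% of all genes. The median log2 fold change of those tested was -0.98, against 0.02 over all genes. With 1 library left out, the count of lower members was 9 (against 2.04% of all genes) without cko replicate 1, 5 (0.467%) without cko replicate 2, 8 (0.562%) without wt replicate 1 and 5 (0.38%) without wt replicate 2, and it was 28 (9.4%) without the dbko libraries. At 0h the median of these members was -0.09 and 2 were lower and 1 higher in cko. At 6h no member passed as higher in edgeR's main fit or in DESeq2, and 2 had an unadjusted p under 0.05 in that direction in the main fit. Without the dbko libraries 3 members passed as higher, where 8.97% of all genes did. With no filter on low counts 2 passed as higher (1.92% of all genes) and 26 as lower (2.91%). The difference between the knockout effects at 6h and at 0h passed for 6 members, all more negative at 6h.

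The members of this list whose fall was stable were Bcl2l1, Bcl2a1b, Il4i1 and Icam1. Il4i1, a secreted amino acid oxidase, had 40.2 and 42.4 CPM in cko and 171 and 158 CPM in wt (-1.99 ± 0.18, adjusted p = 7.5e-05 in edgeR's test). Its exons overlap those of Atf5 and Tbc1d17 on the other strand, and the use of strand in counting is not stated, so reads of these genes cannot be told apart. Icam1, an adhesion molecule that binds the integrin LFA-1, had 60.9 and 53.5 CPM in cko and 124 and 141 CPM in wt (-1.21 ± 0.15, adjusted p = 0.000798). At 0h Icam1 was at 104 and 97.2 CPM in cko and 98.3 and 103 CPM in wt, so the groups overlapped before BAFF.

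Sites bound by NF-kB are commonly written as a GGG stretch and a CC pair with a spacer between them. The pattern of GGG, any 5 bases and CC was searched on both strands of the 250 bases before each start in the RefSeq promoter table (GRCm38.p6). The sequences shown are those of the known targets with a stable fall and a match. Capitals mark the match. The Bcl2l1 stretch lies at chr2:152830938-152830967 on the minus strand, before 1 of its 3 listed starts, and overlaps an annotated exon; the match begins 242 bases before that start. The Il4i1 stretch lies at chr7:44836079-44836108 on the plus strand, also over an annotated exon, and its capitals cover overlapping matches on both strands. The Icam1 stretch is the whole window at chr9:21015690-21015939 on the plus strand, upstream of the annotated exons, with the match read on the minus strand.
Bcl2l1: tgtttgtgGGGGGTCTCCagcatacgcctc
Il4i1: ccacctgggtGGGTAGTCCCCacccccagc
Icam1: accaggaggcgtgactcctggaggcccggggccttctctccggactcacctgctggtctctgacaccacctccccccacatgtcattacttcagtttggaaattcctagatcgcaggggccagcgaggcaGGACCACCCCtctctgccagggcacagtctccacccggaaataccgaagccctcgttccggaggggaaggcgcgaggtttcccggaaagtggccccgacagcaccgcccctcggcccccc
No match was found in the Bcl2a1b window. This short motif is common: it was present in the windows of 66.4% of 9422 tested genes with a promoter in the table, 67.8% of 171 genes lower in cko, 68.5% of 143 genes higher in cko and 72.4% of 29 known targets. A match is a description of the letters and not evidence of binding, and the genes lower in cko held it about as often as all tested genes.

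The transcript that hosts miR-155, Mir155hg, was picked out after its values were seen, since NF-kB targets in B cells include it. It stood at 19.6 and 13.4 CPM in cko at 6h, against 50.6 and 54.4 CPM in wt at 6h. The groups lay apart, with a stable log2 fold change of -1.67 ± 0.21 (adjusted p = 0.00121 in edgeR's test). At 0h the level was 10.1 and 10.3 CPM in cko and 5.42 and 6.2 CPM in wt, and the knockout effect at 6h differed from that at 0h by -2.48 (adjusted p = 0.00473). From 0h to 6h it rose by 0.69 on the log2 scale in cko (adjusted p = 0.0262 in edgeR's test) and by 3.17 in wt (adjusted p = 9.78e-07). The counts measure this host transcript and not the mature miRNA, whose sequence in RefSeq at chr16:84714143-84714165 on the plus strand is given here with its seed, bases 2 to 8, in capitals.
miR-155-5p: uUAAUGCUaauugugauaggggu

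Several well-known targets fell in the fit to all libraries but not with each library left out. Il2ra, the high-affinity interleukin-2 receptor chain, stood at 20.9 and 21.2 CPM in cko and 131 and 136 CPM in wt (-2.66 ± 0.45, adjusted p = 0.0123 in edgeR's test, 0.0568 to 0.111 with 1 library left out). The replicates of Il2ra lay close together in both groups, and the cko values lay far below the wt values. Irf4, a factor that directs B cell activation and plasma cell fate, stood at 601 and 599 CPM in cko and 1220 and 1302 CPM in wt (-1.07, adjusted p = 0.00551, 0.0301 to 0.0731 with 1 library left out). Stat5a, a transducer of cytokine signals, fell by 1.10 (adjusted p = 0.00428, 0.0269 to 0.0643 with 1 library left out). The chemokines Ccl3 at 36.5 and 55.9 CPM in cko against 170 and 238 CPM in wt, and Ccl4 at 68.7 and 104 CPM in cko against 322 and 420 CPM in wt, fell by 2.14 and 2.11 on the log2 scale. Both of these chemokine calls, with adjusted p of 0.0112 and 0.0136, ended with at least 1 library left out. Of the 23 tested targets that were not called, Ccnd2, which encodes cyclin D2, had 32.4 and 32.9 CPM in cko and 95.2 and 91.1 CPM in wt (-1.51 ± 0.39, adjusted p = 0.0714).

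**Figure D2:**
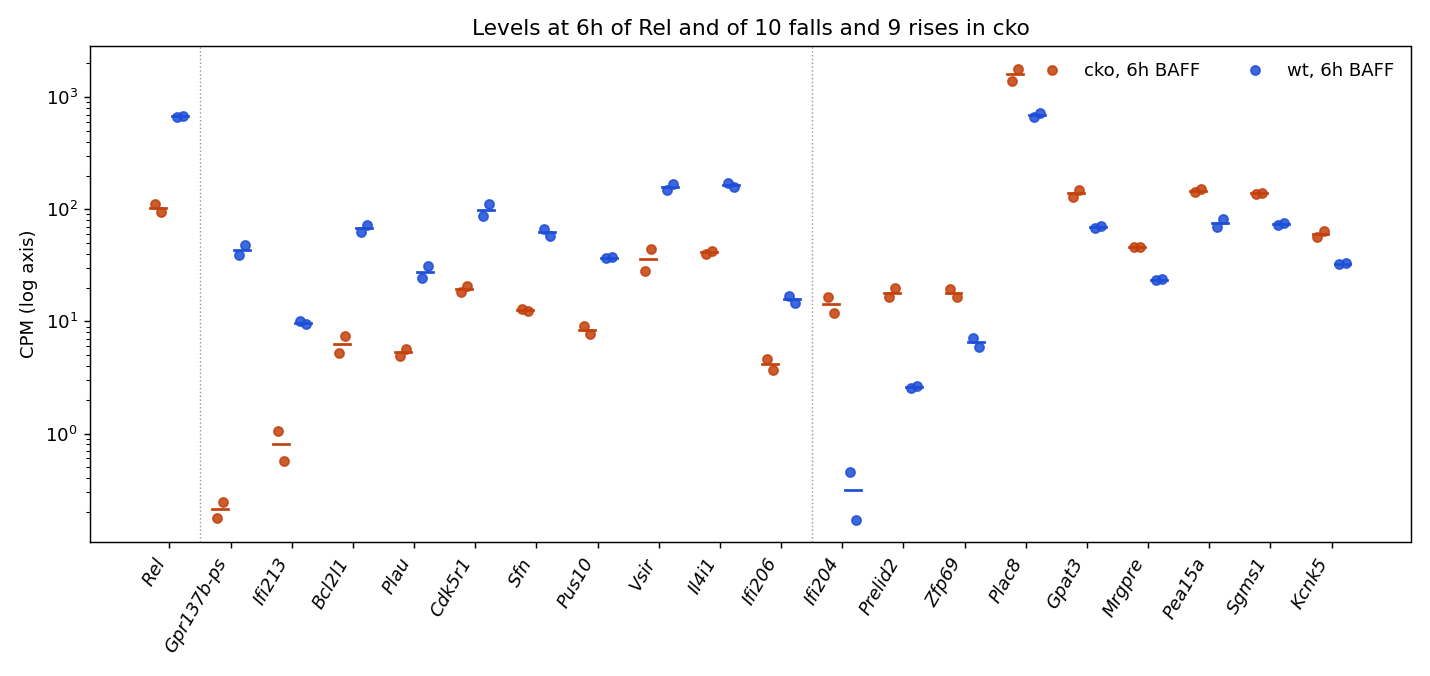
Levels at 6h in CPM on a log axis for Rel, the 10 largest stable falls and 9 of the 10 largest stable rises, red for the 2 cko libraries and blue for the 2 wt libraries, with a bar at each group's mean. Red and blue points do not overlap for any of these genes, and the gap is widest for Gpr137b-ps, Ifi204, Ifi213 and Bcl2l1.

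Of 9 tested genes of IkB proteins, A20 and other regulators of NF-kB, 3 were lower in cko, against 1.96% of all genes, and 6 did not pass. The nuclear IkB proteins among them are known both to restrain and to assist transcription by NF-kB. Nfkbiz, a nuclear IkB protein, stood at 95.0 and 83.3 CPM in cko and 209 and 266 CPM in wt (-1.41 ± 0.24, adjusted p = 0.00933 in edgeR's test). Tnfaip3, the ubiquitin-editing inhibitor A20, stood at 156 and 149 CPM in cko and 382 and 431 CPM in wt (-1.41 ± 0.28, adjusted p = 0.0177). Nfkbid, another nuclear IkB protein, stood at 334 and 370 CPM in cko and 910 and 1129 CPM in wt (-1.53 ± 0.36, adjusted p = 0.0471). The 3 genes were each below their wt range, but with 1 library left out their adjusted p reached 0.114, 0.165 and 0.274, and between 0 and 1 member of the list was called. Nfkbia, the classical inhibitor IkB-alpha, had a log2 fold change of -0.50 (adjusted p = 0.216) and Nfkbie one of -0.45 (adjusted p = 0.0934). Without the dbko libraries, where 9.4% of all genes were lower, both passed as lower (adjusted p = 0.00412 and 0.00222 in edgeR's test). Nfkbie also passed with DESeq2 (0.0223). At 0h Nfkbie was higher in cko (0.70, adjusted p = 0.0234 in edgeR's test), and its effect at 6h minus that at 0h was -1.145 (adjusted p = 0.0152).

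Of the receptors through which BAFF acts, BAFF-R passed the test and TACI did not. Tnfrsf13c, which encodes BAFF-R, stood at 150 and 174 CPM in cko and 260 and 291 CPM in wt (-0.77 ± 0.12, adjusted p = 0.00343 in edgeR's test, 0.0146 to 0.0691 with 1 library left out). Both cko values lay below both wt values. Tnfrsf13b, which encodes the related receptor TACI, had a log2 fold change of 0.03 (adjusted p = 0.94). In all, 2 of 14 tested members of the list of BAFF and TNF receptors were lower (1.96% of all genes) and 1, Tnfrsf26, a decoy receptor of mouse, was higher (0.67; 1.58% of all genes). With 1 library left out, 0 or 1 member was lower and 0 or 1 higher, and the adjusted p of Tnfrsf26 lay between 0.0242 and 0.0841. Among 19 TRAF, cIAP, NIK and IKK genes, the adaptors Traf1 (-0.65) and Traf4 (-0.73) were lower and Traf5 (0.58) was higher, and the list median was 0.05, against 0.02 over all genes. These 3 calls were lost with at least 1 library left out, where adjusted p reached 0.151 for Traf1, 0.317 for Traf4 and 0.287 for Traf5 in edgeR's test. Traf3, which restrains NIK, and Map3k14, which encodes NIK, had log2 fold changes of 0.25 and 0.13 with adjusted p of 0.329 and 0.754.

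Surface molecules of activated B cells were lower for 5 of 16 tested members, against 1.96% of all genes, with a list median of -0.44, and 2 or 3 were called with 1 library left out. Slamf7, a receptor of the SLAM family, stood at 37.5 and 39.5 CPM in cko and 81.4 and 93.0 CPM in wt and was stable (-1.18 ± 0.16, adjusted p = 0.00201 in edgeR's test). Slamf1, a receptor of the same family, fell by 1.04 (adjusted p = 0.00432, 0.0249 to 0.0571 with 1 library left out). Cd83, a marker of B cell activation, stood at 584 and 727 CPM in cko and 1145 and 1373 CPM in wt (-0.94, adjusted p = 0.0186, 0.0635 to 0.217 with 1 library left out). Cd40 and Cd86, receptors for T cell help and costimulation, had log2 fold changes of -0.05 and 0.44 and did not pass. The low-affinity IgE receptor gene Fcer2a, which marks follicular B cells, stood at 296 and 277 CPM in cko and 552 and 515 CPM in wt (-0.90, adjusted p = 0.0114, 0.0412 to 0.107 with 1 library left out).

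Of 23 tested genes of Myc, the G1 cyclins and their inhibitors, 2 were lower and 1 was higher in cko, against 1.96% and 1.58% of all genes. Of the 23, 12 had a log2 fold change below 0, and the median was -0.0041. Myc, a master regulator of growth and division, stood at 179 and 232 CPM in cko and 480 and 586 CPM in wt (-1.37 ± 0.31, adjusted p = 0.037 in edgeR's test, 0.118 to 0.254 with 1 library left out). Cdk6, a kinase that drives cells through G1, stood at 27.6 and 23.9 CPM in cko and 49.5 and 51.7 CPM in wt and was stable (-0.97 ± 0.13, adjusted p = 0.00201). Mxd4, a repressor that competes with Myc for its partner Max, was higher at 86.7 and 97.0 CPM in cko, against 53.0 and 48.7 CPM in wt (0.85, adjusted p = 0.0358, 0.0644 to 0.274 with 1 library left out). Of 40 ribosome biogenesis genes, 39 had a log2 fold change below 0 (46.8% of all genes) and the median was -0.44, while 3 passed as lower and 1 as higher. The 3 were Nolc1 (-0.87) and Gnl3 (-0.83), both of the nucleolus, and Heatr1 (-0.78), needed for rRNA synthesis, and the higher one was Ubtf (0.55), a factor of RNA polymerase I. None of these 4 calls was stable. The count of lower members moved widely: it was 0 to 5 with 1 library left out, 9 with DESeq2 (3.63% of all genes), 14 with only the 4 libraries compared (3.53%), 22 with no filter on low counts (2.91%) and 31 without the dbko libraries (9.4%). At 0h the median of these 40 genes was 0.06.

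Of 25 tested cholesterol synthesis genes, 24 were below 0 (46.8% of all genes), the median was -0.45 and 3 were lower, against 1.96% of all genes. Among them were Lss, lanosterol synthase, at 81.5 and 66.7 CPM in cko and 141 and 121 CPM in wt (-0.82, adjusted p = 0.0179 in edgeR's test), and Srebf2, which activates the pathway (-0.53). Neither was stable. Of all genes, 3.63% were lower with DESeq2, 3.53% with only the 4 libraries compared, 2.91% with no filter and 9.4% without the dbko libraries. The list had a median of -0.28 at 0h. Its count of lower members was 0 or 1 with 1 library left out, 4 with DESeq2, 6 with only the 4 libraries compared, 8 with no filter and 16 without the dbko libraries. Of 12 genes of amino acid and iron uptake, the transferrin receptor gene Tfrc (-0.70) and the arginine transporter gene Slc7a1 (-0.79) were lower, against 1.96% of all genes, and 0 to 2 were with 1 library left out. No member was called among 11 genes of MHC class II presentation, 11 of class I presentation, 30 interferon-stimulated genes, 35 genes of DNA replication, 25 genes of mitosis and 38 genes of oxidative phosphorylation, by edgeR or by DESeq2. At an unadjusted p under 0.05 the class II list had 0 members, class I had 2 lower, the interferon list 3 higher and 2 lower, DNA replication 1 lower, mitosis 0, and oxidative phosphorylation 4 higher. Without the dbko libraries, where 8.97% of all genes were higher and 9.4% lower, 9 mitosis genes were lower, 8 DNA replication genes were lower and 2 higher, 3 interferon genes were higher and 1 lower, 2 class I genes were lower, and 1 gene each of class II and oxidative phosphorylation was higher. The mitosis list had a median of -0.39 with 24 of 25 members below 0 (46.8% of all genes), and at 0h its median was -0.71.

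**Figure D3:**
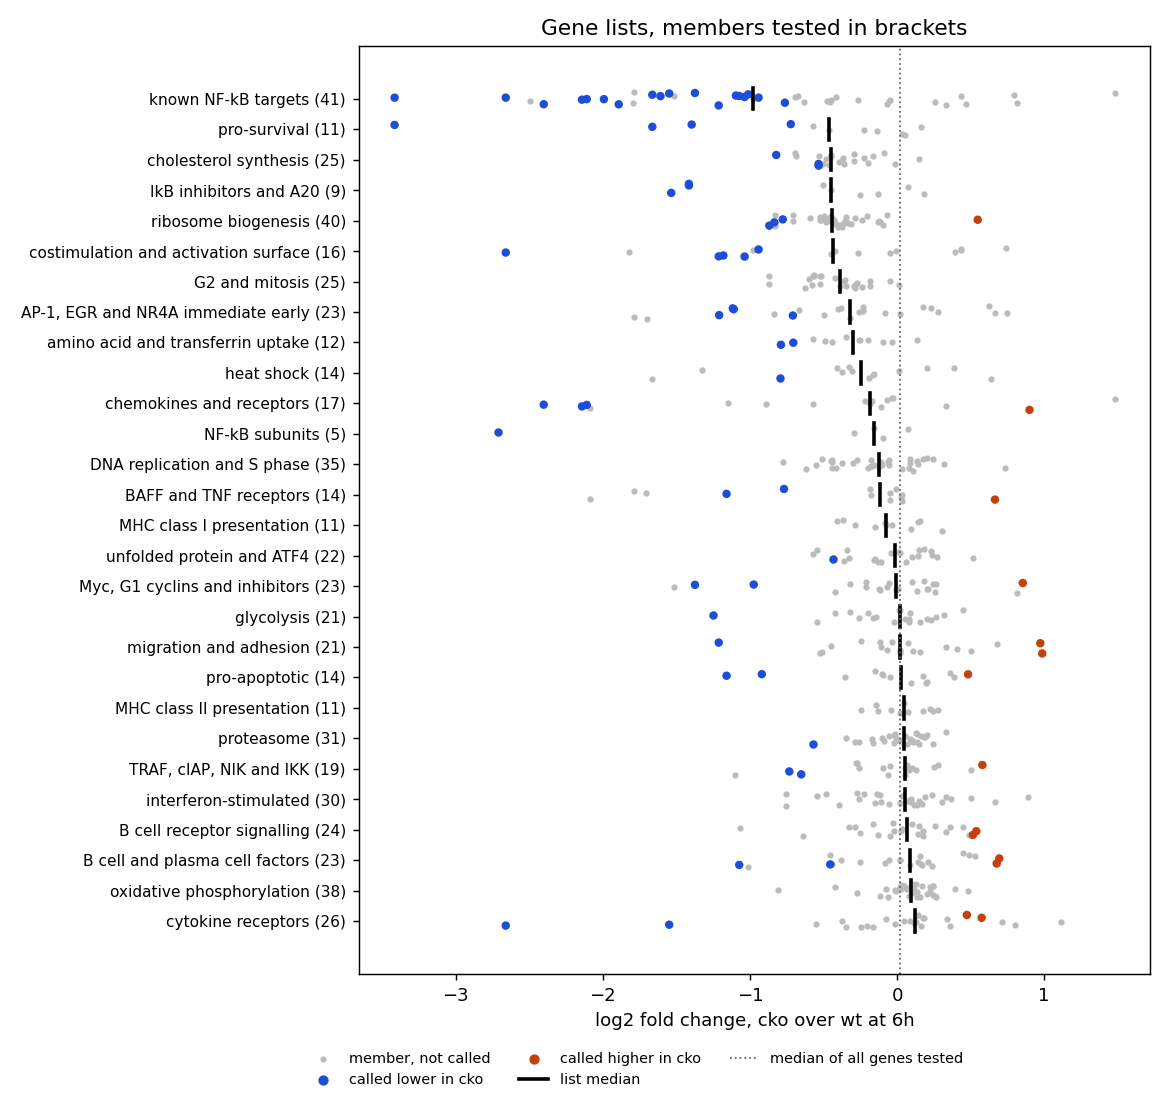
Each row is a gene list with the number of members tested in brackets, and each point is the log2 fold change of a member, cko over wt at 6h, blue where called lower, red where called higher and grey where not called. Black bars mark list medians, the dotted line marks the median of all genes at 0.02, and the known NF-kB targets lie furthest to the left with a median of -0.98.

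A list of immediate early genes of the AP-1, EGR and NR4A families also held Dusp2, from outside these families. Of its 23 tested members 4 were lower, against 1.96% of all genes. The list median was -0.32 at 6h and -0.36 at 0h. At 0h 2 members were called, both lower in cko, and 1.5% of all genes were called in either direction. Egr2, a factor induced by antigen receptor signals, was stable at 28.8 and 30.1 CPM in cko and 57.7 and 69.3 CPM in wt (-1.11 ± 0.13, adjusted p = 0.000683 in edgeR's test). In dbko against wt at 6h it was not called (-0.24, adjusted p = 0.185). Egr1 (-1.21), Nr4a3 (-1.12) and the phosphatase gene Dusp2 (-0.71) passed with all libraries and not with each left out. The group of B cell receptor signalling genes had 2 of 24 members higher, the kinase gene Btk (0.52) and the adaptor gene Dapp1 (0.54), against 1.58% of all genes, and neither was stable. DESeq2 gave 4 higher and 1 lower (2.52% and 3.63% of all genes), and the fit without the dbko libraries 7 higher and 4 lower.

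The 10 largest stable falls, after Rel, included genes with no common function. Plau, which encodes the secreted protease urokinase, stood at 4.92 and 5.72 CPM in cko and 24.3 and 30.9 CPM in wt (-2.37 ± 0.29, adjusted p = 0.000921 in edgeR's test). Cdk5r1, the activator p35 of the kinase Cdk5, stood at 18.2 and 20.5 CPM in cko and 86.8 and 112 CPM in wt (-2.36 ± 0.30, adjusted p = 0.00202). Vsir, which encodes the checkpoint receptor VISTA, stood at 28.0 and 44.3 CPM in cko and 150 and 168 CPM in wt (-2.14 ± 0.23, adjusted p = 0.000509). At 0h Cdk5r1 and Vsir had log2 fold changes of 0.07 and 0.12, neither called. In dbko against wt at 6h, Cdk5r1 (-3.77) and Vsir (-2.41) were lower, and Plau was not called (-0.68, adjusted p = 0.0793 in edgeR's test). Pus10, a pseudouridine synthase, stood at 9.14 and 7.68 CPM in cko and 36.9 and 37.4 CPM in wt at 6h (-2.14 ± 0.21, adjusted p = 0.000176), and at 19.9 and 24.9 CPM in cko and 28.9 and 35.7 CPM in wt at 0h. Whether its place beside Rel bears on this fall was not tested, and its exons overlap Pex13 on the other strand.

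The other 5 of these 10 falls were also called at 0h. Il4i1, described above, had a log2 fold change of -0.80 at 0h (adjusted p = 0.0348 in edgeR's test, 0.0541 to 0.0657 with 1 library at 6h left out of the fit). Sfn, the cell cycle inhibitor 14-3-3 sigma, stood at 12.8 and 12.3 CPM in cko and 66.5 and 58.1 CPM in wt at 6h, and its log2 fold change was -2.31 at 6h and -2.77 at 0h. Gpr137b-ps, annotated as a pseudogene, had 5 reads in the cko libraries together and 992 in the wt libraries, and wt cells held 206 times the cko level (95% exact interval of the counts 88.1 to 637). Gpr137b, looked at after its values were seen, went the other way. It was higher in cko at 6h (1.28, adjusted p = 0.00299 in edgeR's test, not stable) and at 0h (0.98, adjusted p = 0.0359). Ifi213 and Ifi206, of a family of interferon-inducible DNA-binding proteins, fell by 3.58 and 1.92 at 6h and by 4.26 and 1.96 at 0h. These 2 genes and Gpr137b-ps have near copies in the genome, so reads may be split or lost between copies and their levels are uncertain.

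Among the 10 largest stable rises, Plac8 drew the most counts. This gene, which encodes a small cysteine-rich protein of immune cells, stood at 1393 and 1804 CPM in cko and 672 and 724 CPM in wt (1.20 ± 0.15, adjusted p = 0.000882 in edgeR's test). At 0h it was at 480 and 463 CPM in cko and 478 and 463 CPM in wt, a log2 fold change of 0.00. Mrgpre, an orphan receptor, stood at 46.6 and 46.3 CPM in cko and 23.5 and 23.7 CPM in wt (0.98 ± 0.11, adjusted p = 0.000436). Sgms1, a sphingomyelin synthase, was at 138 and 140 CPM in cko and 72.7 and 76.0 CPM in wt (0.91). These 3 genes were not called at 0h, and the difference of their knockout effect between 6h and 0h passed with all libraries, though for none of the 3 with each of the 4 libraries at 6h left out in turn. Gpat3, an acyltransferase of triglyceride synthesis, rose by 1.00 at 6h and had a log2 fold change of 0.51 at 0h that did not pass. Mrgpre, Sgms1, Gpat3 and Pea15a share exon positions with another annotated gene, which may add reads.

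Another 5 of these rises were called at both times. Ifi204, of the same family as Ifi213, stood at 16.6 and 12.0 CPM in cko and 0.458 and 0.17 CPM in wt (5.48 ± 0.44, adjusted p = 3.88e-05 in edgeR's test), and had a log2 fold change of 6.89 at 0h, with 336 reads in cko and 7 in wt and a ratio of 46.2 (95% exact interval of the counts 22.2 to 116). Prelid2 rose by 2.80 at 6h and 3.06 at 0h, and the zinc finger gene Zfp69 by 1.46 and 1.70. Pea15a, a death-effector domain phosphoprotein, rose by 0.96 at 6h and 1.44 at 0h, and Kcnk5, a background potassium channel, by 0.88 and 0.91. These genes were thus higher in cko before culture with BAFF as well. The difference between the times did not pass for any of the 5, which does not show that the effects were equal: it was -1.41 for Ifi204 and -0.48 for Pea15a.

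**Figure D4:**
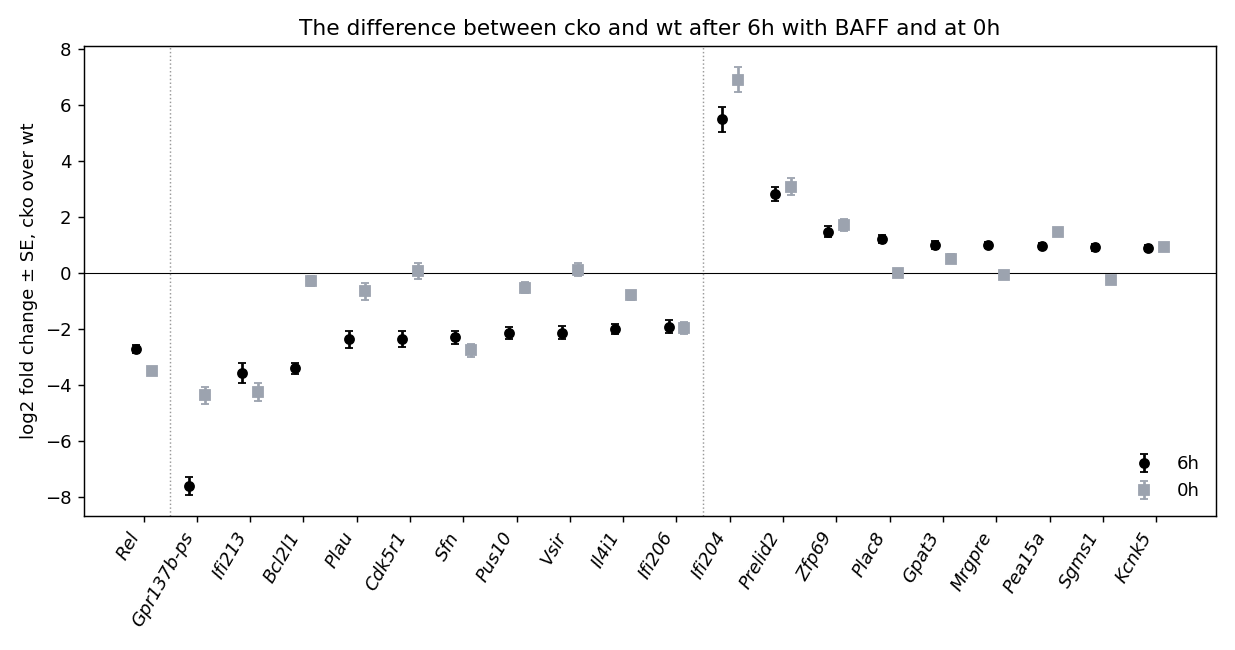
Log2 fold change of cko over wt with its standard error at 6h (black circles) and at 0h (grey squares) for Rel, the 10 largest stable falls and 9 of the 10 largest stable rises. Bcl2l1, Cdk5r1, Vsir, Plac8, Mrgpre and Sgms1 lie near 0 at 0h and away from it at 6h, whereas Ifi213, Ifi206, Sfn, Ifi204, Prelid2, Zfp69, Pea15a and Kcnk5 lie on the same side of 0 at both times, Ifi204 at 5.48 at 6h and 6.89 at 0h.

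The remaining stable genes completed a set of 42 whose average log2 CPM was 3 or more, 12 higher and 30 lower. Those named here were picked after their values were seen, and their grouping by function was not tested. Of them, 3 regulators of transcripts were lower in cko. Zfp36l1, which promotes mRNA decay, stood at 290 and 335 CPM in cko and 654 and 736 CPM in wt (-1.15, adjusted p = 0.00231 in edgeR's test), Zc3h12c, a relative of the RNase Regnase-1, at 13.1 and 15.2 CPM in cko and 30.02 and 29.8 CPM in wt (-1.08), and Tent5c, a poly(A) polymerase, at 32.4 and 36.4 CPM in cko and 68.5 and 66.3 CPM in wt (-0.97). Each was below both wt values. In dbko against wt at 6h, Zfp36l1 was lower as well (-1.14, adjusted p = 0.000469 in edgeR's test). Zc3h12c was not called there (-0.15, adjusted p = 0.503), and Tent5c was higher (0.91, adjusted p = 0.000234). The chromatin enzymes Hdac1, a histone deacetylase (-1.21), and Dot1l, a histone H3 methyltransferase (-1.09), were lower, and Hdac1 was also lower at 0h (-1.06). Of genes of membranes and vesicles, Mreg (-1.63), the endolysosomal transporter Slc15a3 (-1.53), the mannose-6-phosphate receptor Igf2r (-1.18) and the class I myosin Myo1g (-1.07) were lower. In dbko against wt at 6h, Mreg (-1.53), Igf2r (-1.02) and Myo1g (-0.86) were lower. Slc15a3 was not called there (-0.14, adjusted p = 0.407 in edgeR's test). Tagap, a GTPase-activating protein of lymphocytes, stood at 44.7 and 52.1 CPM in cko and 129 and 170 CPM in wt (-1.63, adjusted p = 8.44e-05). Cpt1a, which carries fatty acids into mitochondria, was higher at 87.5 and 89.2 CPM in cko, against 52.6 and 49.3 CPM in wt (0.79, adjusted p = 0.00191).

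Genes of lymphocyte traffic were among the rises that were not stable. S1pr1, the sphingosine-1-phosphate receptor that guides exit from lymphoid organs, stood at 621 and 766 CPM in cko and 334 and 366 CPM in wt (0.99 ± 0.17, adjusted p = 0.00869 in edgeR's test, 0.0125 to 0.11 with 1 library left out). S1pr4, a related receptor, stood at 85.4 and 110 CPM in cko and 48.0 and 51.7 CPM in wt (0.97, adjusted p = 0.00299, 0.00453 to 0.055 with 1 library left out). With Icam1 lower, these were the called genes among 21 of migration and adhesion (1.58% of all genes were higher and 1.96% lower), whose median of 0.02 equalled that of all genes. The chemokine receptor gene Ccr9 rose by 0.90 and the B cell coactivator gene Pou2af1, at 1823 and 2062 CPM in cko and 1207 and 1193 CPM in wt, by 0.69, and both calls ended with at least 1 library left out. Cd2 (0.86) and Cd28 (1.46), which served as T cell markers, were higher in cko, and neither was stable. Of the other T cell markers, Lck stood at 55.83 and 55.65 CPM in cko and 60.68 and 58.17 CPM in wt, Trac reached 1.10 CPM in wt replicate 2, and the remaining 9 were under 1 CPM in each library. Zbtb46, listed as a dendritic cell marker, was lower in cko (-1.01) and higher in cko at 0h (1.61). The 9 dendritic cell markers summed to 39.8 and 41.8 CPM in cko, against 68.9 and 68.0 CPM in wt, with most of it from Zbtb46. Of the others, Flt3 stood at 11.87 and 12.34 CPM in cko and 15.74 and 14.86 CPM in wt, Itgax reached 2.53 CPM, and 6 were under 1 CPM in each library, Batf3 and Clec10a at 0. Itgax, Xcr1 and Clec9a had positive log2 fold changes of 0.62, 2.97 and 2.26 that did not pass. The part of these cell types in the results was not tested.

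Over all genes, 189 (1.5%) were called between cko and wt at 0h, 116 of them higher in cko (0.918%), and 53 of them were called at 6h in the same direction, which is 11.9% of the calls at 6h and 28.0% of those at 0h. Of the 56 stable genes, 24 were called at 0h, all in the same direction (9 of the 16 higher and 15 of the 40 lower), and 32 were not. The difference between the 2 knockout effects, tested gene by gene, passed for 215 genes (1.7%), and 145 of these were more negative at 6h (1.15%). Among the 19 genes described of the largest stable rises and falls it passed for 9, and for Bcl2l1 it did so also with each of the 4 libraries at 6h left out. The comparison at 0h and that at 6h share no library, but both rest on the same fit. The difference between them uses the libraries of both times, and the 19 genes had been chosen by their effect at 6h.

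**Figure D5:**
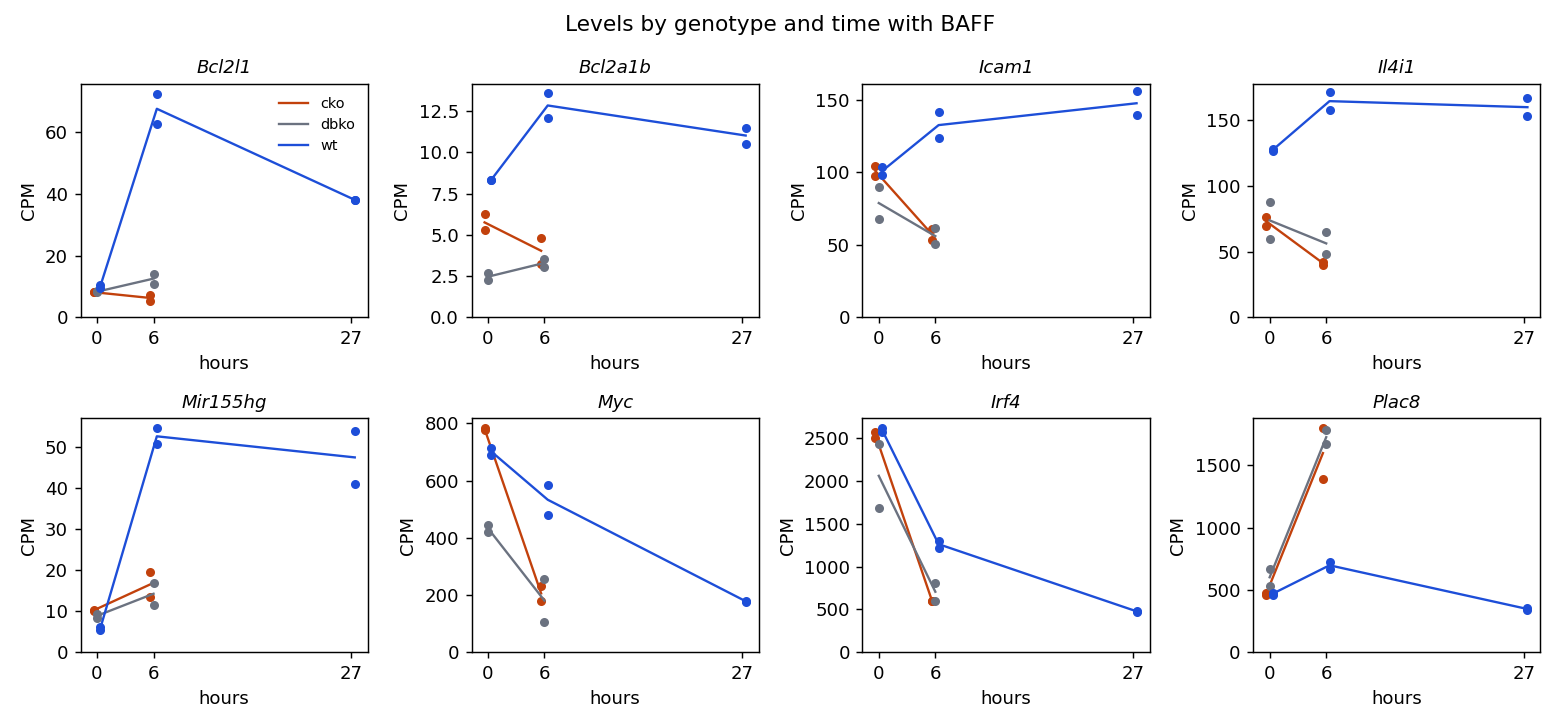
Levels in CPM of 8 genes by hours with BAFF, points for libraries and lines through group means, red for cko, grey for dbko and blue for wt, which alone has 27h. Bcl2l1, Mir155hg, Myc and Irf4 lie lower in cko than in wt at 6h, and Plac8 lies higher in cko and dbko than in wt at 6h.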

How the data were processed

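Libraries were made, per the labels' protocols, from column-purified RNA reverse transcribed with poly-dT primers. Each library has its own deposited table, in which the authors give whole-number read counts by Ensembl gene ID with no normalization. CASAVA 1.8.2 appears in the submitters' processing notes, and the sources used here name no aligner, counter, build, annotation or strand setting. Tallies of reads outside genes (no feature 5.21 to 11.46%, several alignments 38.77 to 46.46% in the 4 libraries compared) were left out. Symbols and positions came from GENCODE M21 on GRCm38, which matched 37607 of 39179 IDs.

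Counts were scaled by TMM and fitted in edgeR 4.0.16 (R 4.3.3; limma 3.58.1) with 1 mean per group over all 14 libraries (7 groups of 2, 7 residual degrees of freedom) after filterByExpr, tested two-sided by glmQLFTest, and adjusted by Benjamini and Hochberg over 12630 genes. Calls needed an adjusted p under 0.05. The fit was tested on simulated data. Alternatives were DESeq2 1.42.0, its size factors, no filter, a replicate block, the 4 libraries alone, no dbko libraries, and each of the 4 libraries left out. Named genes were Rel, the 10 largest stable rises and falls with a proper symbol and an average log2 CPM of at least 3 (prior count 2), and up to 5 called members of each list; further stable genes, uncalled list members and genes called in opposite directions were named after their values were seen. Some genes that met these rules are not reported here. The comparison, gene lists and rules were chosen with earlier results of these data known. Intervals of counts cover counting error only.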

Additional observations from a re-analysis of the deposited data

Results flagged for a closer look

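For 9 of the 19 genes described of the largest stable rises and falls, the knockout effect differed between 6h and 0h in edgeR's test of that difference (adjusted p under 0.05). Those more negative at 6h, with the 6h effect minus the 0h effect on the log2 scale, were Gpr137b-ps (-3.24), Bcl2l1 (-3.11), Cdk5r1 (-2.43), Vsir (-2.25), Pus10 (-1.61) and Il4i1 (-1.19). Those more positive at 6h were Plac8 (1.19), Sgms1 (1.15) and Mrgpre (1.07). Of these 9 calls, 1 was lost without cko replicate 1, 5 without cko replicate 2, 7 without wt replicate 1 and 8 without wt replicate 2 at 6h, and Bcl2l1 passed each time. The genes had been chosen by the size of their effect at 6h.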

How the results depend on the processing

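The count of called genes was 447, with 199 higher and 248 lower in cko. It was 1030 (409 higher, 621 lower) with no filter on low counts, 671 (275 higher, 396 lower) with DESeq2, 641 (239 higher, 402 lower) with only the 4 libraries compared, and 2233 (1090 higher, 1143 lower) without the dbko libraries, whose replicates differed by a chi-square of 33.23 per gene at 0h and 38.25 at 6h. With 1 library left out it lay between 70 and 448 (22 to 190 higher, 48 to 258 lower). Known NF-kB targets lower in cko numbered 18, but 28 without the dbko libraries and 5 to 9 with 1 library left out. DESeq2 size factors gave 450 calls (181 higher, 269 lower). Replicate numbers equal sequencing lanes and nothing says that they pair libraries: deviations of same-numbered cko and wt libraries at 6h correlated at 0.158, and 4 of 21 pairs of groups exceeded 0.1. A replicate block gave 490 calls (212 higher, 278 lower). Of the 119 genes followed, none changed direction past the threshold under any alternative run; 117 kept their side under DESeq2, and between 66 and 90 did with 1 library left out. Depth limits genes with few reads, such as Gpr137b-ps in cko and Ifi204 in wt. With 2 libraries a group, a p that misses the threshold does not show that levels were equal.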

Other observations

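Genes that differed in the same direction at both times lay unevenly over the chromosomes (positions from GENCODE M21 on GRCm38; this was noticed in the data, and no test was made). Of 777 tested genes on chromosome 4, 42 were called at 6h (5.41%) and 11 of them also at 0h in the same direction (1.42%), among them Zfp69, Hdac1 and Sfn. The 2 shares were 5.93% and 1.32% on chromosome 13, and 6.51% and 1.03% on chromosome 18. Chromosome 6 had 16 calls among 679 genes and none at both times in that sense. Of all 12630 genes tested, 3.54% were called at 6h, and 53 genes were called at both times in the same direction. On chromosome 1, 5 of the 7 genes called at both times belonged to the Ifi200 family of interferon-inducible DNA-binding proteins, whose 13 members fill the stretch between positions 173350879 and 174031810 as far as tested genes go. In this stretch 7 of 13 genes (53.8%) were called at 6h, 3 higher and 4 lower in cko, against 4.08% on the whole chromosome. Ifi211 stood at 7.21 and 4.74 CPM in cko and 0.366 and 0.17 CPM in wt, whereas Ifi209 stood at 88.5 and 87.7 CPM in cko and 151 and 156 CPM in wt. Members within this stretch thus differed in opposite directions, and since the family has near copies, single levels are uncertain.

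For 5 of 14 tested heat shock genes the knockout effect was more negative at 6h than at 0h in edgeR's test of that difference, against 1.15% of all genes. At 0h, 8 of the 14 were higher in cko (0.918% of all genes), and at 6h 1 was lower (1.96% of all genes), Hsph1, a co-chaperone of Hsp70. Hsph1 stood at 97.1 and 98.3 CPM in cko and 159 and 179 CPM in wt at 6h (-0.79, adjusted p = 0.0164 in edgeR's test), and at 3257 and 3232 CPM in cko and 1054 and 1149 CPM in wt at 0h (1.56, adjusted p = 0.000224). Hsph1 was 1 of 6 genes called in opposite directions, higher in cko at 0h and lower at 6h, with Tfrc, Zbtb46, the aryl hydrocarbon receptor gene Ahr, the DNA repair gene Nbn and Morf4l2. The difference between the times passed for all 6, and none of the 6 was stable at 6h. Of 67 tested snoRNAs 7 were called at 6h, and of 322 pseudogenes 16, against 407 of 11376 protein coding genes; reads of such short or copied genes are uncertain.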
